A study of Mus musculus with 10 samples.

Results

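The genes described here encode the proteins of the cytosolic ribosome. They were taken by symbol as the rows of the deposited gene table named Rps, Rpl, Rplp or Rpsa with their usual numbering, without S6 kinase genes and without predicted pseudogenes. The rule found 81 genes of 17359 in the table: 47 of the large subunit, 31 of the small subunit and 3 of the stalk. The symbols of the ribosomal components Rps3a1, Fau and Rack1 lie outside the rule, and these genes are given separately. Poly(A) RNA was sequenced from mouse liver, and every group ate a high-fat diet. RF livers (n = 3) were taken on day 7 of a weekly feeding cycle, in its free-feeding phase. LC livers (n = 4) were taken on day 3 of the same cycle, when intake was cut by 70%. AL livers (n = 3, labelled replicates 2, 3 and 4) came from controls fed freely throughout. In that cycle, restriction was 50% on its outer days, 1 and 4, and 70% on days 2 and 3, with free feeding after that. The sources used here give no strain, sex, age, time of day or number of weeks on the cycle. Whether each library is its own animal is not stated, and p-values therefore cover the variation among libraries, which may be partly technical.

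A ribosome joins a small subunit, which reads the mRNA, to a large subunit, which forms the peptide bond, and a flexible stalk on the large subunit recruits elongation factors. The mRNAs of ribosomal proteins are known as TOP mRNAs, because they begin with a tract of pyrimidines (C and T in the DNA). That tract puts their translation under the control of the nutrient-sensing kinase mTOR, which acts through LARP1 and the 4E-BP proteins. Making ribosomes is costly for a cell. RNA sequencing counts the mRNA and does not measure its translation or the number of ribosomes.

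The windows of 7 genes around the annotated transcription start are shown because they hold the tract, or its absence, in genes whose level differed between the groups. Each runs from 10 bases before the start to the first 20 transcribed bases, and capitals mark the longest run of pyrimidines in the window. Rps12, Rpl13a, Rpl38, Rps28 and Rps15 were higher in LC livers, and Rps2 and Rpl10 were lower. The sequences are RefSeq's, on GRCm38.p6, written on the transcribed strand.
Rps12: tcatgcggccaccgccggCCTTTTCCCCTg
Rpl13a: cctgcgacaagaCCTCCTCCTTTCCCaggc
Rpl38: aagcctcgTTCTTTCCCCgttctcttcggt
Rps28: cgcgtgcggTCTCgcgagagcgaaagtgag
Rps15: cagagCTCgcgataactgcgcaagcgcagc
Rps2: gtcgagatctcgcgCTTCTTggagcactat
Rpl10: tacagtggaagataggccgCCTatataagg
Rps12 lies at chr10:23787190-23787219 on the minus strand, Rpl13a at chr7:45128726-45128755 on the minus strand and Rpl38 at chr11:114668570-114668599 on the plus strand. Rps28 lies at chr17:33824543-33824572 on the minus strand, Rps15 at chr10:80292421-80292450 on the plus strand, Rps2 at chr17:24720053-24720082 on the plus strand and Rpl10 at chrX:74270806-74270835 on the plus strand. The run was 11 bases in Rps12, 14 in Rpl13a and 10 in Rpl38, and 4 or fewer in Rps28, Rps15 and Rpl10. In the window of 20 bases on each side of the start, used further below, the longest run of Rps15 was 7 bases. Annotated starts can lie some bases from the starts that liver cells use, so a short run in the window does not show that the mRNA lacks the tract.

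The ribosomal protein genes took a larger share of the LC libraries than of any RF or AL library. Their share of all counts was 1.71%, 1.75% and 1.82% in RF livers, 2.27%, 2.19%, 2.45% and 2.66% in LC livers, and 1.89%, 1.57% and 1.77% in AL livers. The means were 1.76% ± 0.054 (SD, n = 3) in RF, 2.39% ± 0.21 (SD, n = 4) in LC and 1.74% ± 0.16 (SD, n = 3) in AL. Every LC library lay above every RF and AL library, and the RF and AL ranges overlapped. On FPKM, which divides by transcript length and gives short mRNAs more weight, the means were 4.79% ± 0.19 in RF, 6.91% ± 0.42 in LC and 4.71% ± 0.48 in AL, with the same separation. The share depends on what else is in the library. The Mup genes, which encode the major urinary proteins, took between 7.91% and 11.4% of counts in RF, 4.30% and 7.97% in LC, and 7.86% and 11.8% in AL. With Mup genes left out of the total, the ribosomal share was 1.94% in RF, 2.55% in LC and 1.92% in AL.

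**Figure D1:**
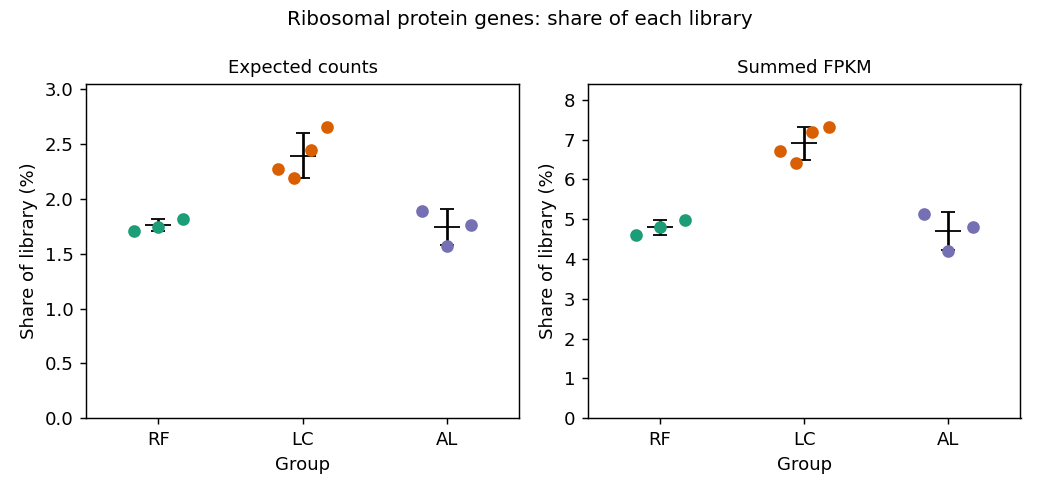
Share of each library taken by the 81 ribosomal protein genes, in percent of expected counts (left) and of summed FPKM (right), for RF, LC and AL. Points are libraries, the dash is the mean and the bar 1 SD; all 4 LC points lie above the RF and AL points in both panels.

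Of the 81 genes, 78 had enough counts to be tested. The muscle-type paralog Rpl3l reached 7 counts at most, Rpl39l, known for its testis expression, reached 1, and Rpl6l reached 1.56. Per length, the median level over all libraries was 534 FPKM across the tested genes, and ran from 12.9 FPKM for Rpl32l to 1865 FPKM for Rpl38, a very short mRNA whose FPKM depends strongly on the assumed length. Totals per library lay between 13871533 and 15899479 counts. Expected counts divide reads among near-identical sequences, which matters for genes with many processed pseudogenes: 25.2% of the values of these 81 genes were not whole numbers (beyond 1e-09), against 10.9% in the whole table, and 47 of the 81 had whole counts in every library.

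LC and AL livers were compared to ask how the ribosomal protein mRNAs stood on a day of 70% restriction. Of the 78 genes tested, 20 were higher in LC livers and 3 were lower, at a Benjamini-Hochberg adjusted p below 0.05 in edgeR's quasi-likelihood test over all 12789 genes tested. Among all genes tested, 16.0% were called higher and 15.6% lower, so in this fit the share called higher (25.6%) exceeded the background and the share called lower (3.85%) was below it. The median log2 fold change was 0.19 over the 78 genes and 0.05 over all genes tested. The libraries of the groups did not overlap for 27 genes that were higher (background 18.7%) and for 7 that were lower (background 17.1%). The differences were small: apart from the rarely read Rpl32l, the largest rise was 0.65 on the log2 scale. The count of 20 rested on single libraries. It was 1 (1.28%) without AL replicate 3, where 7.37% of all genes were higher, and 1 without AL replicate 4, where 9.21% were. Without LC replicate 4 it was 6 (7.69%, background 13.6%), and without RF replicate 3 it was 11 (14.1%, background 13.7%). With LC and AL libraries fitted alone it was 7 (8.97%, background 13.3%), and with no filter on low counts 13 of 81 (16.0%, background 10.9%). The share called higher therefore lay below that of all genes in 4 of the 23 alternative analyses and above it in 19. The 3 lower genes became 1 without AL replicate 3 (background 8.85%).

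Of the 5 highest fitted changes, 4 were of small subunit genes. Rps12, a protein of the small subunit head, had 198, 205 and 206 CPM (counts scaled by library size to a common total) in RF livers, 303, 321, 288 and 399 CPM in LC livers, and 254, 184 and 191 CPM in AL livers. All LC values lay above all RF and AL values, and the log2 fold change of LC over AL was 0.65 ± 0.15 (SE, adjusted p = 0.0068). Rps12 was called higher in all 23 alternative analyses. Rps28, which sits near the mRNA exit channel, had 98.1, 99.1 and 111 CPM in RF, 189, 166, 162 and 229.6 CPM in LC, and 149, 109.7 and 109 CPM in AL. The LC range did not touch the AL range, at 0.61 ± 0.16 (SE, adjusted p = 0.011). Rps27a, which is made as a fusion with ubiquitin, had 244, 260.4 and 245 CPM in RF, 266, 299.8, 323 and 468 CPM in LC, and 210.4, 238 and 233 CPM in AL. The LC values were all higher, with LC replicate 4 far above the others, at 0.58 ± 0.17 (SE, adjusted p = 0.021).

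Rps20, another protein of the head, had 169.7, 162 and 178 CPM in RF livers, 257, 267, 231 and 315 CPM in LC livers, and 219, 164 and 174 CPM in AL livers. The groups LC and AL did not overlap, and the log2 fold change was 0.53 ± 0.14 (SE, adjusted p = 0.014). Rps15, a protein near the decoding site, rose by 0.51 ± 0.15 (SE, adjusted p = 0.021), and Rps21 by 0.56 ± 0.18 (SE, adjusted p = 0.030), although the lowest LC value of Rps21 (98.7 CPM) was under the highest AL value (107 CPM). Rps19, the gene most often mutated in human Diamond-Blackfan anaemia, rose by 0.47 ± 0.15 (SE, adjusted p = 0.025). In all, 9 of 31 small subunit genes were higher and 1 was lower, with a median of 0.31. Rps6, the substrate of S6 kinase, had a fitted change of -0.08 ± 0.12 (adjusted p = 0.65), and Rps3, which lines the mRNA entry channel, one of -0.15 ± 0.14 (adjusted p = 0.43); neither passed the test. Rps26 was at -0.13 (adjusted p = 0.40), Rps4x at 0.05 (adjusted p = 0.82), Rps25 at 0.22 (adjusted p = 0.18) and Rpsa, also known as the laminin receptor precursor, at 0.33 (adjusted p = 0.10).

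Of the 44 large subunit genes tested, 11 were higher and 2 were lower, with a median of 0.13. Rpl13a, which in human cells also serves in an interferon-dependent complex that silences translation, had 493, 497 and 503 CPM in RF livers, 704, 672, 769 and 876 CPM in LC livers, and 616, 457 and 480.3 CPM in AL livers. The groups LC and AL did not overlap, at 0.55 ± 0.14 (SE, adjusted p = 0.012). Rpl36 had 159.9, 138 and 161 CPM in RF, 239, 239.9, 222 and 262 CPM in LC, and 205, 149 and 154 CPM in AL. It was higher in every LC library, by 0.50 ± 0.14 (SE, adjusted p = 0.015). Rpl38, whose loss alters the translation of Hox mRNAs in mouse embryos, had 139, 124 and 118 CPM in RF, 209, 204, 174 and 229 CPM in LC, and 193, 116 and 119.5 CPM in AL. AL replicate 2 lay within the LC range, and the change was 0.51 ± 0.18 (SE, adjusted p = 0.039). Rpl32l, a rarely read paralog of Rpl32, had the largest fitted change, 0.77 ± 0.23 (SE, adjusted p = 0.022), at 3.77 CPM in RF, 6.90 CPM in LC and 4.04 CPM in AL on average; reads from Rpl32 and its copies could enter it.

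In LC livers 3 genes were lower. Rps2, at the mRNA entry channel, had 774, 862 and 865 CPM in RF livers, 562, 676, 669 and 687 CPM in LC livers, and 813, 1013 and 1079 CPM in AL livers. Every LC value was below every RF and AL value, and the log2 fold change of LC over AL was -0.58 ± 0.14 (SE, adjusted p = 0.0065). Rpl10, one of the last proteins to join the large subunit, next to the peptidyl transferase centre, had 556, 550.2 and 571 CPM in RF, 405, 421, 477 and 426 CPM in LC, and 527, 641 and 621 CPM in AL. The LC values were again the lowest, at -0.46 ± 0.12 (SE, adjusted p = 0.012). Rpl23a, at the mouth of the exit tunnel, had 288, 273 and 253 CPM in RF, 257, 221, 243 and 173 CPM in LC, and 287, 331 and 317 CPM in AL, and fell by 0.48 on the log2 scale (SE 0.14, adjusted p = 0.021). The fitted direction of all 3 was negative in each of the 23 alternatives, with adjusted p-values of up to 0.11 for Rps2, 0.36 for Rpl10 and 0.43 for Rpl23a. The 3 genes lost their calls when libraries were scaled to their totals.

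**Figure D2:**
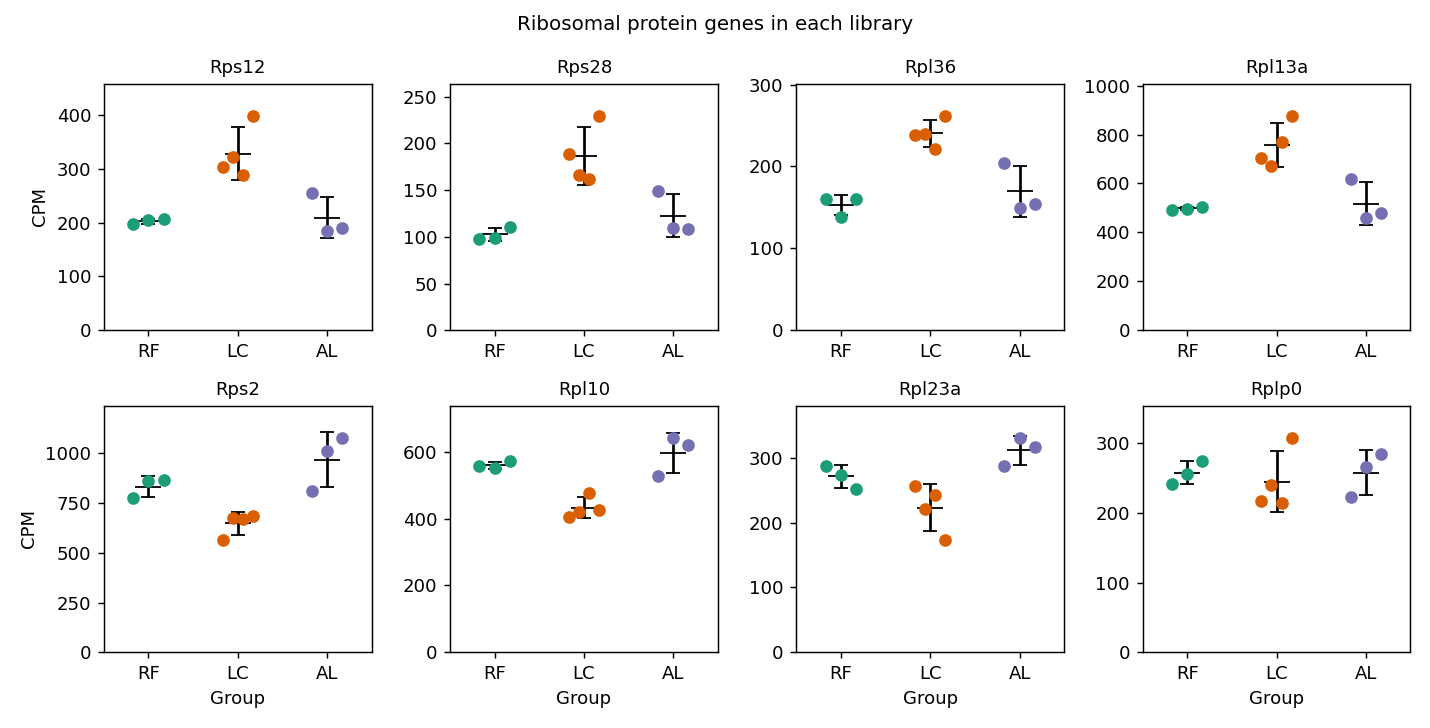
CPM of 8 ribosomal protein genes in each RF, LC and AL library, with the mean (dash) and 1 SD (bar); axes start at 0. Rps12, Rps28, Rpl36 and Rpl13a were higher in LC, Rps2, Rpl10 and Rpl23a were lower in LC, and Rplp0 overlapped between the groups.

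Genes of proteins that assemble as a unit gave mixed values. In the stalk, Rplp0, the base to which the others bind, had 242, 256 and 275 CPM in RF livers, 218, 239.6, 214 and 308 CPM in LC livers, and 223, 267 and 285 CPM in AL livers. The groups overlapped, and the change of LC over AL was -0.08 ± 0.15 (SE, adjusted p = 0.72). Rplp1 was at 0.28 ± 0.17 (adjusted p = 0.22) and Rplp2 at 0.48 ± 0.19 (adjusted p = 0.066), so no stalk gene passed the test. Rpl5 and Rpl11, which form a particle with the smallest ribosomal RNA and bind Mdm2 when ribosome assembly fails, were at 0.00 ± 0.18 (adjusted p = 1.00) and 0.06 ± 0.12 (adjusted p = 0.73). Rpl3 and Rpl4, early-binding proteins of the large subunit core, were at -0.38 ± 0.22 (adjusted p = 0.21) and -0.28 ± 0.19 (adjusted p = 0.28). Rpl26, which also binds the mRNA of p53, was higher by 0.34 ± 0.12 (adjusted p = 0.044), Rpl22, a protein of the large subunit with a paralog in Rpl22l1, by 0.36 ± 0.12 (adjusted p = 0.031), and Rpl37a by 0.39 ± 0.12 (adjusted p = 0.030). Rpl23 was higher by 0.38 ± 0.14 (adjusted p = 0.047). Rpl41, the shortest ribosomal protein, was at 0.49 ± 0.20 (adjusted p = 0.073), Rpl39, which lines the exit tunnel, at 0.16 ± 0.13 (adjusted p = 0.38) and Rpl10a, on the side opposite the stalk, at 0.12 ± 0.15 (adjusted p = 0.59).

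Paralogs and proteins outside the symbol rule were looked at in the same fit. Rps27 was at 0.34 ± 0.13 (adjusted p = 0.062) and its p53-inducible paralog Rps27l at -0.23 ± 0.12 (adjusted p = 0.14); neither passed the test. Rps27l had 209, 208 and 208 CPM in RF livers, 222, 189.6, 222 and 193 CPM in LC livers, and 252, 245 and 231 CPM in AL livers. Both the RF and the LC values of Rps27l lay below all AL values. Outside the rule, Fau, which encodes a small subunit protein fused to a ubiquitin-like domain, rose by 0.49 ± 0.14 (SE, adjusted p = 0.017). Rps3a1 was at 0.26 ± 0.15 (adjusted p = 0.19) and the scaffold protein Rack1 at 0.25 ± 0.15 (adjusted p = 0.22). Rpl7l1, a paralog of Rpl7 known from ribosome assembly, fell by 0.39 on the log2 scale (SE 0.11, adjusted p = 0.015), while Rpl22l1 (adjusted p = 0.68) and Rpl36al (adjusted p = 0.96) did not pass the test. Between RF and LC livers, the log2 fold change was -0.50 ± 0.14 for Fau (adjusted p = 0.021) and 0.50 ± 0.11 for Rpl7l1 (adjusted p = 0.0062).

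RF livers were compared with LC livers to follow the same mRNAs to the end of the free-feeding days. Of the 78 genes, 27 were lower in RF livers and 1 was higher by edgeR's test, against a background of 10.7% lower and 11.4% higher. The share called lower, 34.6%, stood above the background. The median log2 fold change of RF over LC was -0.24 over the 78 genes and -0.02 over all genes tested. The groups did not overlap for 45 genes that were lower in RF (background 16.5%) and for 3 that were higher (background 17.7%). The small subunit gave 15 of its 31 genes to the lower calls, the large subunit 11 of 44 and the stalk 1 of 3. The call of the 1 higher gene was lost without any single library other than LC replicate 3 or AL replicate 2. The 27 lower calls became 10 (12.8%, background 4.96%) without RF replicate 2, 15 (19.2%, background 7.02%) without RF replicate 1 and 17 (21.8%, background 5.91%) without RF replicate 3. The share called lower was above that of all genes in each of the 23 alternatives. This comparison shares the LC libraries with the one above, so its values are not independent of it.

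Rps28 was lower in RF livers, at -0.86 ± 0.16 on the log2 scale (SE, adjusted p = 0.0031), next to Rpl32l at -0.87 ± 0.23 (adjusted p = 0.017). Rps21, at -0.78 ± 0.18 (adjusted p = 0.0089), and Rps12, at -0.69 ± 0.15 (adjusted p = 0.0073), followed. Rps27, a zinc-finger protein of the small subunit, had 89.1, 95.4 and 97.8 CPM in RF livers, 140.2, 140.0, 150.0 and 163 CPM in LC livers, and 139, 108 and 105 CPM in AL livers. The RF values of Rps27 were below all others, and the change of RF over LC was -0.66 ± 0.13 (SE, adjusted p = 0.0046). Rpl38 was at -0.68 ± 0.18 (adjusted p = 0.015), Rpl36 at -0.65 ± 0.14 (adjusted p = 0.0062) and Rpl37a at -0.58 ± 0.12 (adjusted p = 0.0065). Rps29 was at -0.52 ± 0.13 (adjusted p = 0.012), the stalk gene Rplp1 at -0.53 ± 0.17 (adjusted p = 0.041) and Rpsa at -0.51 ± 0.15 (adjusted p = 0.025). Rpl10 was the gene that rose, by 0.37 ± 0.12 (SE, adjusted p = 0.044), a call that held in 8 of 23 alternatives. Rps2, at 0.36 ± 0.14 (adjusted p = 0.071), Rpl23a, at 0.28 ± 0.14 (adjusted p = 0.17), Rpl3, at 0.37 ± 0.22 (adjusted p = 0.24), and Rpl4, at 0.35 ± 0.19 (adjusted p = 0.21), did not pass the test.

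RF livers were compared with AL livers to see whether the mRNAs were at control levels after the free-feeding days. By edgeR's test no gene of the 78 was called in either direction, while 0.0156% of all genes tested were called higher and 0.0391% lower, so few genes of any kind passed. At an unadjusted p below 0.05 in the same test, 0 genes were higher and 4 were lower. Among all 12789 genes tested, 1381 were below it, both directions together. DESeq2 and limma's voom fit also called 0 of the 78. DESeq2 called 0.313% of all genes higher and 0.469% lower, and voom called 0.156% and 0.235%. The median log2 fold change was -0.09 over the 78 genes and 0.01 over all genes tested. The groups did not overlap for 21 genes that were lower in RF (background 9.56%) and for 2 that were higher (background 9.38%). Standard errors ran between 0.12 and 0.25, so a missing call does not show equal levels. Rpl27 had 182, 169.7 and 180.1 CPM in RF livers, 248, 221, 227 and 238 CPM in LC livers, and 278, 216 and 206 CPM in AL livers. It had the lowest fitted change of RF over AL, -0.39 ± 0.14 (SE, adjusted p = 0.34), and its RF values lay below all others. Rpl14, at -0.38 ± 0.12 (adjusted p = 0.32), Rps29, at -0.33 ± 0.13 (adjusted p = 0.41), Rps27, at -0.32 ± 0.14 (adjusted p = 0.43), and Rps28, at -0.25 ± 0.17 (adjusted p = 0.61), followed. The highest fitted changes were those of Rpl41, at 0.21 ± 0.21 (adjusted p = 0.74), Rps27a, at 0.13 ± 0.18 (adjusted p = 0.82), Rps15a, at 0.11 ± 0.16 (adjusted p = 0.84), Rpl5, at 0.10 ± 0.19 (adjusted p = 0.89), and Rpl32, at 0.09 ± 0.15 (adjusted p = 0.85). Of these 5, Rps27a had all RF values above all AL values, and the others overlapped.

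**Figure D3:**
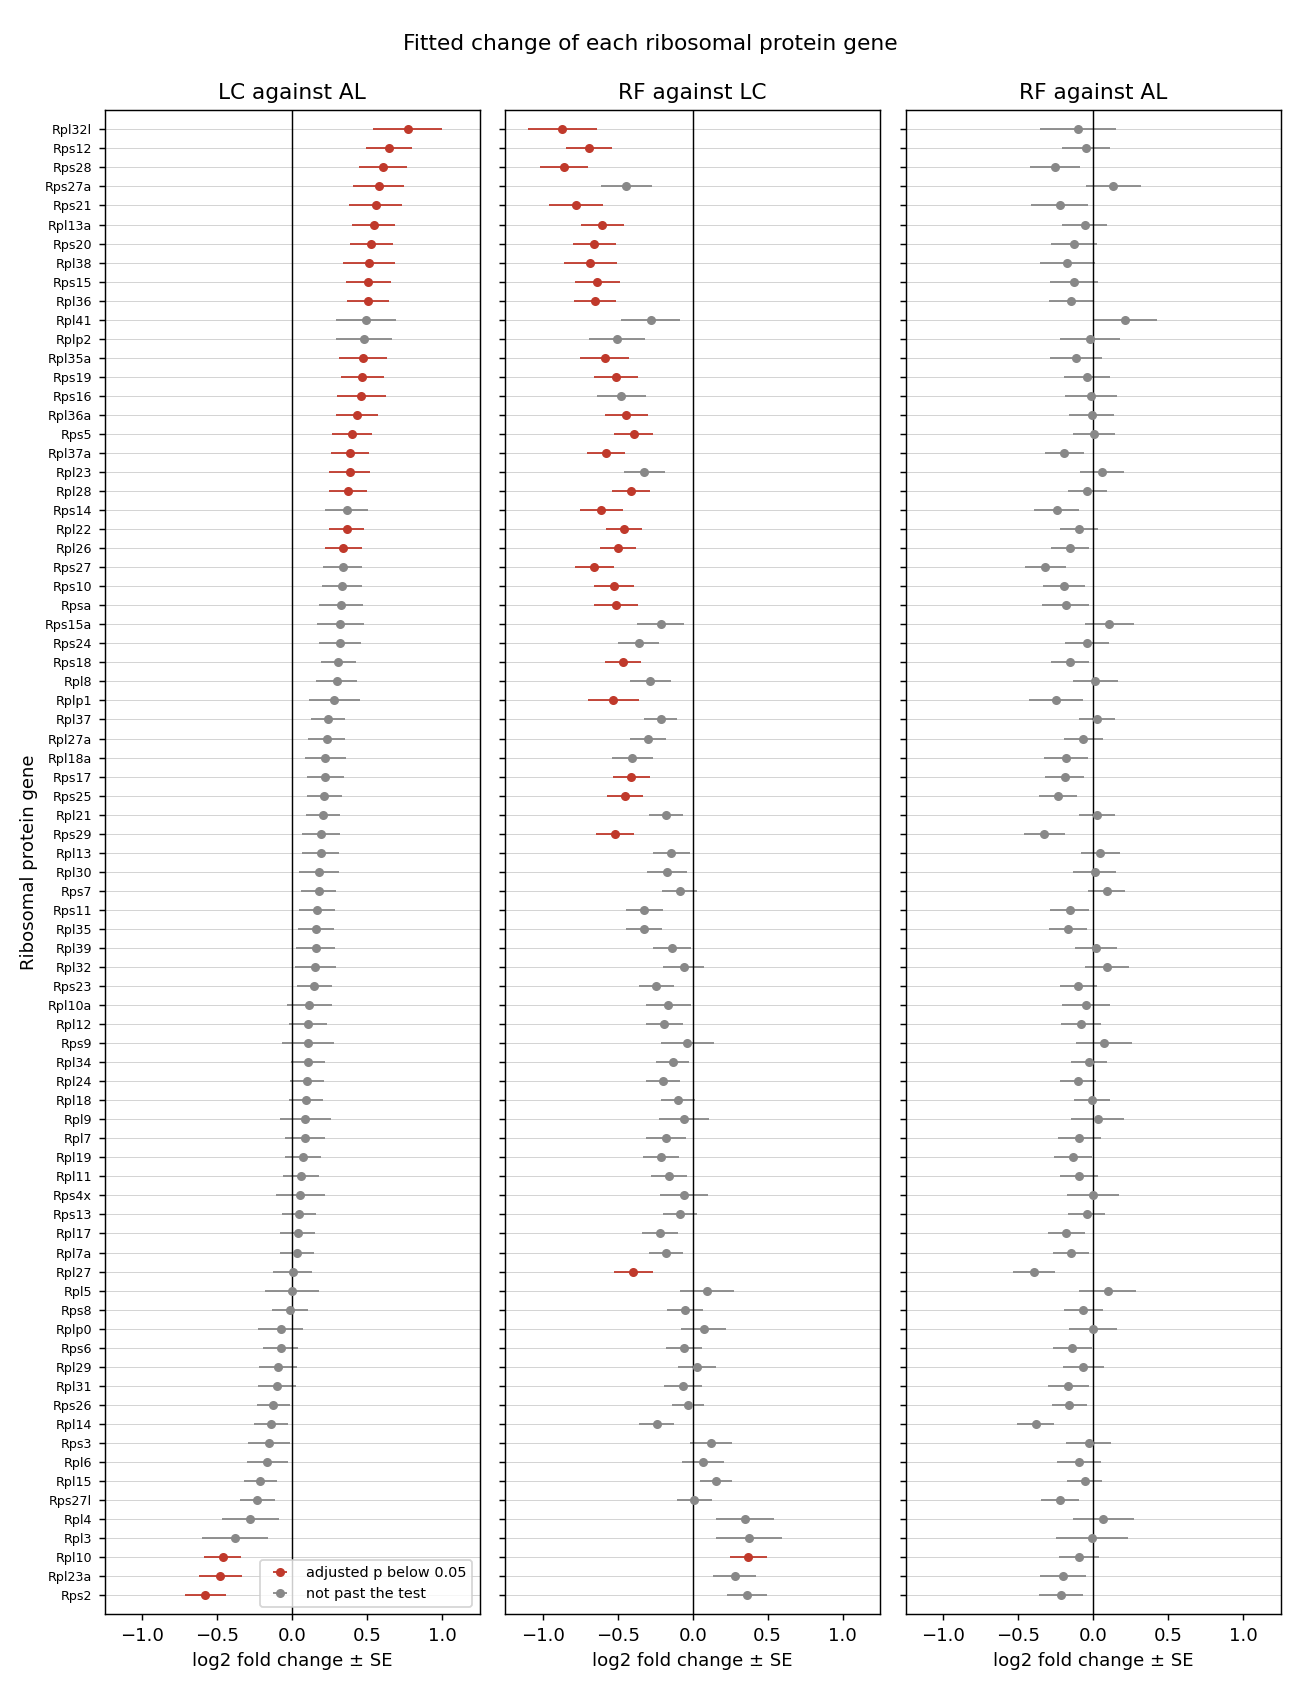
Fitted log2 fold change with its standard error for each of the 78 tested ribosomal protein genes, for LC against AL, RF against LC and RF against AL, in the order of the first panel. Red marks an adjusted p below 0.05: 20 genes right of 0 and 3 left of it in the first panel, 1 and 27 in the second, and 0 in the third.

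The genes that were higher in LC livers had shorter coding sequences than the others. Coding lengths, known for 77 of the 78 genes from GENCODE vM21, had a median of 394.5 bases for 19 of the 20 genes higher in LC (Rpl32l has none), 642 for the 3 lower and 478.5 for the 55 not called. The length of each gene is a median over its transcripts. A value such as 394.5 bases for Rps15 or 412.5 for Rpl10a is therefore not the length of any single coding sequence. Across the 77 genes the log2 fold change of LC over AL fell with coding length (Spearman rho -0.55, Pearson r -0.52 on log2 length), a description across genes that share the same libraries. Across all 12543 genes with a length it ran the other way, with a rho of 0.33. In classes of coding length, the median change of ribosomal protein genes was 0.36 up to 300 bases (10 genes), 0.32 up to 450 bases (28 genes) and 0.11 up to 600 bases (19 genes). It was 0.00 up to 900 bases (17 genes) and -0.28 above that (3 genes: Rpl3, Rpl4 and Rplp0). Other genes of the same 5 classes had medians of -0.21, -0.23, -0.25, -0.18 and -0.02. The classes up to 600 bases therefore differed in sign from other genes of their length.

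Between RF and LC livers the relation with length had the opposite sign. The rho was 0.56 over the 77 genes and -0.25 over all genes with a length. The medians of ribosomal protein genes in the 5 classes were -0.55, -0.41, -0.19, -0.06 and 0.35, and those of other genes 0.15, 0.16, 0.19, 0.15 and 0.03. For RF against AL the rho was 0.24, and became -0.23 without AL replicate 2. Rpl3 and Rpl4, the longest coding sequences, did not carry the first relation: without them the rho of LC against AL was -0.52 over 75 genes. Over all alternatives run, it lay between -0.59 and -0.41 for LC against AL and between 0.39 and 0.59 for RF against LC. With the length over which the FPKM divides, in place of the coding length, it was -0.39 over 78 genes for LC against AL. GC content gave a rho of 0.21 in the same comparison.

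**Figure D4:**
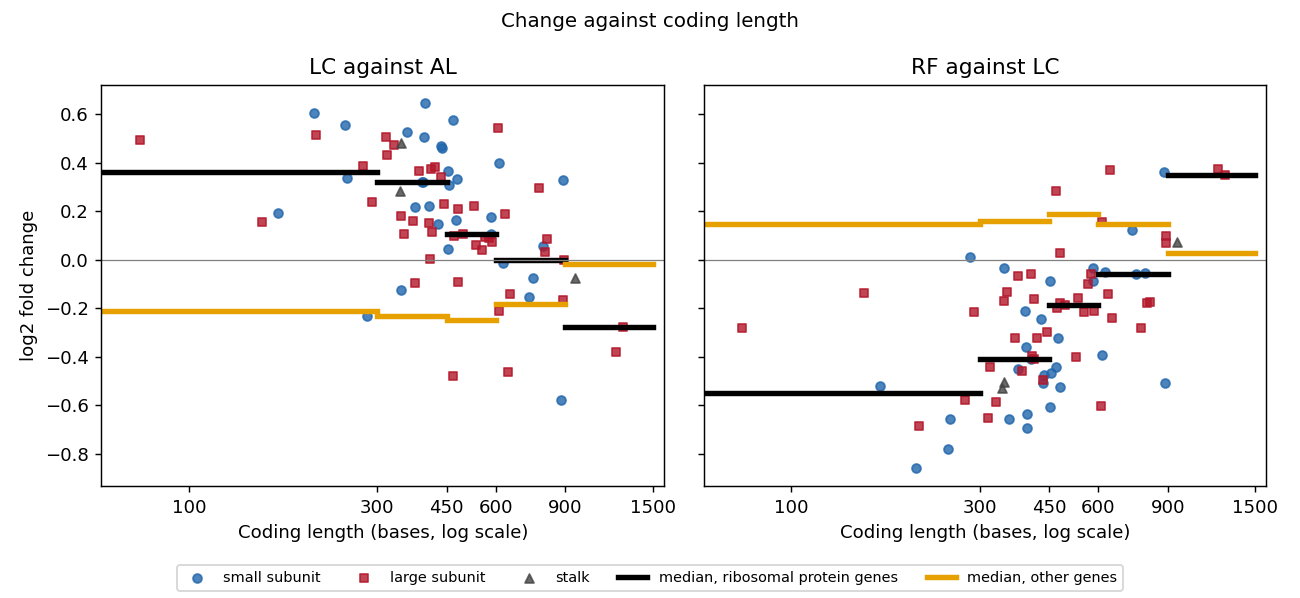
Log2 fold change against coding length in bases (log scale) for the 77 ribosomal protein genes with an annotated coding sequence, for LC against AL and RF against LC, marked by subunit. Black bars are their medians in 5 length classes and orange bars the medians of other genes; below 600 bases the 2 sets of bars lie on opposite sides of 0 in both panels.

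The smooth trend of all genes on the length over which the FPKM divides was removed before testing. More ribosomal protein genes then passed in the LC comparison. In that fit 37 genes were higher in LC than in AL and 0 lower, against a background of 12.6% higher and 15.2% lower. In RF livers, against LC, 37 were lower and 0 higher, against a background of 10.1% lower and 10.8% higher. The median of LC over AL became 0.34 and that of RF over LC -0.32. With the trend removed, the medians of LC over AL in the classes of coding length kept their order, from 0.51 up to 300 bases to -0.09 above 900 bases. Those of RF over LC were -0.44, -0.46, -0.28, -0.19 and 0.24, so the shortest classes changed places. Fitting the trend without the ribosomal protein genes gave 48 higher genes of 78, against a background of 12.9%. Removing trends on annotated transcript length and GC content together gave 43 of the 77 genes with both values, against a background of 12.3%. Rps2, Rpl10 and Rpl23a were not called in the first of these fits.

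The per-library view showed which libraries carried the length relation. The median level of the 38 genes with coding sequences under 450 bases, minus that of the 20 genes of 600 bases or more, was taken in each library on the log2 scale, relative to each gene's mean over the 10 libraries. It was -0.13, -0.19 and -0.16 in RF livers, 0.23, 0.27, 0.07 and 0.22 in LC livers, and 0.10, -0.23 and -0.26 in AL livers. AL replicate 2 lay among the LC values and apart from the other AL libraries. For other genes the same difference was 0.05, 0.04 and 0.04 in RF, -0.16, -0.14, -0.17 and -0.11 in LC, and 0.16, 0.16 and 0.16 in AL, with no such separation of AL replicate 2. The gap between annotated length and the length used by the FPKM, which reflects fragment size, was 289 and 289.8 bases in AL replicates 3 and 4 and between 277 and 284 bases in the other 8 libraries. On FPKM, whose values use those lengths, limma called 57 genes higher in LC (background 33.6%), as many as edgeR on counts scaled by the library totals.

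**Figure D5:**
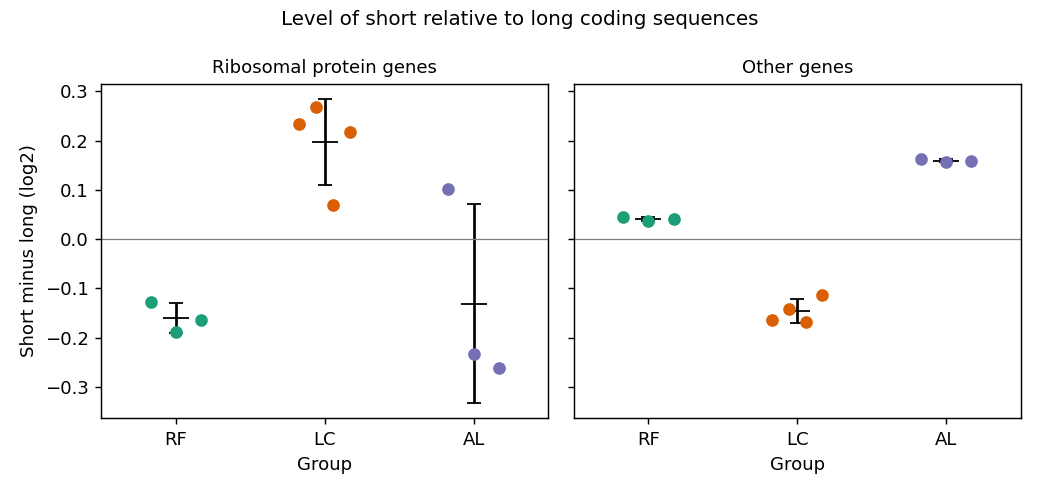
Median log2 level of short coding sequences (under 450 bases) minus that of long ones (600 bases or more) in each RF, LC and AL library, for ribosomal protein genes (left) and other genes (right), with mean (dash) and 1 SD (bar). For ribosomal protein genes all 4 LC points lie above 0 and all RF points below it, with 1 AL point above 0; for other genes the LC points lie below 0 and the RF and AL points above it.

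The size of the change depended on the scaling of the libraries. Scaling to library totals, with no further correction, moved the median of all genes in LC over AL to 0.36, against 0.05 before, and raised the counts to 57 ribosomal protein genes higher and 0 lower. The background moved too, to 34.4% of all genes higher and 5.36% lower. Between RF and LC livers that scaling gave 50 genes lower and 0 higher, with backgrounds of 21.3% and 5.26%. The median of the ribosomal protein genes minus that of all genes was nearly the same on both scales, at 0.14 by the trimmed mean of M values and 0.13 by totals for LC over AL, and -0.23 on both for RF over LC. Over all alternatives it stayed between 0.08 and 0.38 for LC over AL and between -0.35 and -0.18 for RF over LC.

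Libraries of 1 group differed among themselves. LC replicate 4 held the highest LC value for 68 of the 78 genes, and its median deviation from the gene means was 0.33 on the log2 scale, against 0.02 to 0.09 in the other LC libraries. Without it the median of LC over AL was 0.12. AL replicate 2 held the highest AL value for 49 genes. The median SD between libraries on the log2 scale was 0.068 in RF, 0.16 in LC and 0.12 in AL.

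Pyrimidine runs near the start were present in genes that were higher in LC livers and in genes that were not. RefSeq's table of start regions held 60 of the 81 genes. A run of at least 8 pyrimidines within 20 bases of the annotated start was present in 30 of the 60 (50.0%), against 18.4% of 27025 genes in the table. Of the 30 genes with such a run, all tested, 6 were higher in LC than in AL and 0 lower, with a median log2 fold change of 0.17. Of the 28 tested genes without it, 10 were higher and 2 lower, with a median of 0.16. The background over all genes tested was 16.0% higher and 15.6% lower. The sequence CTTTCC, searched on the transcribed strand within the same 20 bases and overlapping the runs, was in 11 of the 60 genes (18.3%), among them Rpl13a and Rpl38, and in 2.30% of all genes. On the other strand it was in 0 of the 60. The 10 tested genes with CTTTCC had a median of 0.33 in LC over AL (4 higher) and -0.47 in RF over LC (6 lower). The 48 without it had medians of 0.15 (12 higher) and -0.21 (14 lower). The background of lower genes in RF against LC was 10.7%. In the 300 bases around the start, from 250 before it to 50 after, CGGAAG, the core of ETS factor motifs, was found on either strand in 68.3% of the ribosomal protein genes and 18.8% of all genes, and AAGATGG, a YY1 core, in 15.0% and 7.28%.

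Genes around the ribosome were taken from lists of known roles. The background for their counts was 16.0% higher and 15.6% lower in LC than in AL. For RF against LC it was 11.4% higher and 10.7% lower. Of 15 other TOP mRNAs, 1 was higher and 1 lower in LC than in AL, with a median of -0.19. Eef1d, a subunit of the elongation factor exchange complex, rose by 0.43 ± 0.13 (adjusted p = 0.027), Eif3h, an initiation factor subunit, fell by 0.32 (SE 0.11, adjusted p = 0.040), and Btf3 was at -0.28 (adjusted p = 0.072). In RF livers 1 of the 15 was lower than in LC, Eef1d, which fell by 0.54 (adjusted p = 0.013), and Hnrnpa1, an RNA-binding protein, was at 0.35 (adjusted p = 0.050) and Naca, a subunit of the nascent chain complex, at -0.29 (adjusted p = 0.11). The medians of these genes and of the ribosomal protein genes had opposite signs in LC against AL and in RF against LC. In RF against AL both were negative. The 2 sets were not matched for coding length, and the difference was not tested. Of 78 mitochondrial ribosomal protein genes, 1 was higher and 33 lower in LC than in AL, with a median of -0.34. In RF livers 20 of them were higher than in LC and 1 lower, with a median of 0.26.

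Genes of ribosome production were mixed. Their counts stand beside the same backgrounds, 16.0% higher and 15.6% lower in LC than in AL. For RF against LC these were 11.4% higher and 10.7% lower. Of 13 genes of ribosomal RNA synthesis, 2 were higher in LC than in AL, the RNA polymerase I subunits Polr1b (0.69 ± 0.19, adjusted p = 0.014) and Polr1a (0.46 ± 0.15, adjusted p = 0.029), and 1 was lower, Polr1d (-0.40 ± 0.12, adjusted p = 0.020). In RF livers 3 of the 13 were lower than in LC: Polr1b (-0.69 ± 0.19, adjusted p = 0.020), Polr1a (-0.53 ± 0.15, adjusted p = 0.020) and Taf1a, of the polymerase I promoter factor (-0.68 ± 0.20, adjusted p = 0.027). Of 32 small subunit assembly factors, 4 were higher and 4 lower in LC than in AL, with Pno1 (-0.65 ± 0.13, adjusted p = 0.0032) and Utp6 (-0.53 ± 0.11, adjusted p = 0.0041) among the lower and the GTPase Bms1 (0.64 ± 0.15, adjusted p = 0.0064) among the higher. Set against LC, RF livers had 3 of the 32 higher and 3 lower, among them Pno1 (0.59 ± 0.13, adjusted p = 0.0077), Bysl (0.64 ± 0.15, adjusted p = 0.0089) and Utp14a (-0.79 ± 0.18, adjusted p = 0.0080). Of 39 large subunit assembly factors, 2 were higher and 4 lower in LC than in AL. Ftsj3 rose by 0.61 ± 0.14 (adjusted p = 0.0051), and Rsl24d1 fell by 0.59 (SE 0.14, adjusted p = 0.0087) and Nop16 by 0.71 (SE 0.18, adjusted p = 0.0087). For RF against LC, 3 were higher, including Nop16 (0.58 ± 0.18, adjusted p = 0.033) and Nop10 (0.42 ± 0.13, adjusted p = 0.036), and 2 lower, including Ppan (-0.73 ± 0.22, adjusted p = 0.032).

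Of 14 genes of translational control, 5 were higher and 2 lower in LC than in AL (background 16.0% and 15.6%). Eif4ebp2, a 4E-BP that holds back the cap-binding protein, averaged 5.23 CPM in RF, 2.07 CPM in LC and 5.04 CPM in AL livers, and its change of LC over AL was -1.28 ± 0.21 (adjusted p = 0.0010). The S6 kinase gene Rps6kb2 averaged 28.9 CPM in RF, 46.4 CPM in LC and 28.2 CPM in AL, a rise of 0.72 ± 0.15 in LC (adjusted p = 0.0032). Tsc1, an inhibitor of mTOR complex activity, rose by 0.63 ± 0.16 (adjusted p = 0.011). In RF livers 3 of the 14 were higher than in LC and 2 lower (background 11.4% and 10.7%). They included Eif4ebp2 (1.34 ± 0.21, adjusted p = 0.0015), the cap-binding protein Eif4e (0.44 ± 0.11, adjusted p = 0.014) and, among the lower, Rps6kb2 (-0.68 ± 0.15, adjusted p = 0.0067). For RF against AL the medians of the lists were -0.11 for other TOP mRNAs, -0.12 for mitochondrial ribosomal proteins, -0.14 for ribosomal RNA synthesis, -0.04 for small subunit assembly, -0.02 for large subunit assembly and 0.10 for translational control.

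The liver identity of the samples was checked with marker lists, and several lists moved with the groups. Of all genes tested, 16.0% were higher and 15.6% lower in LC than in AL, and 11.4% were higher and 10.7% lower in RF than in LC. The 9 hepatocyte markers summed to between 76180 and 79817 CPM of the unscaled library in RF, 55688 and 78011 in LC, and 78665 and 92645 in AL, and 8 of the 9 were lower in LC than in AL, while 6 were higher in RF than in LC. The 10 sinusoidal endothelial markers summed to between 330.4 and 396 in RF, 455 and 474 in LC, and 219 and 269 in AL. Of these, 5 of 10 were higher in LC than in AL, and 1 was higher and 2 lower in RF than in LC. Kupffer cell markers summed to between 159 and 224 in RF, 142 and 265 in LC, and 123 and 202 in AL. In this list 2 of 10 were lower in LC than in AL, and 1 was higher in RF than in LC. Stellate cell and fibroblast markers summed to between 315 and 359 in RF, 239 and 340.2 in LC, and 234 and 272 in AL, with 1 of 8 lower in LC than in AL and 4 higher in RF than in LC. Cholangiocyte markers, 1 of 5 tested higher in LC, summed to between 76.8 and 121 in RF, 82.2 and 106 in LC, and 47.3 and 88.6 in AL. Lymphocyte markers, with a median change of 0.19 in LC over AL over the 6 tested, summed to between 18.2 and 20.6 in RF, 16.0 and 25.8 in LC, and 9.62 and 16.4 in AL. No marker was at 0 in every library. Their part in the ribosomal protein result was not tested, and in whole liver fewer cells of a type and less RNA per cell cannot be told apart.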

How the data were processed

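Liver poly(A) RNA from 10 samples was sequenced without strand on the DNBSEQ platform, with RNA integrity numbers between 6.6 and 8.5, per the labels. The authors deposited expected counts and FPKM for each gene and sample. The submitters' processing notes name HISAT, Bowtie2 and GRCm39; the sources used here give no counting program. FPKM divides counts by transcript length and library size, so short genes depend on the length assumed. Expected counts were rounded. Genes were filtered with filterByExpr and libraries scaled with TMM factors (trimmed mean of M values). All 10 libraries were fitted together with edgeR 4.0.16 (glmQLFit, robust, quasi-likelihood F test, R 4.3.3), and p-values were Benjamini-Hochberg adjusted over all 12789 genes tested and called below 0.05. The SE is the size of the log2 fold change divided by the root of its F statistic. CPM values use TMM factors. Totals lay between 13871533 and 15899479 counts, and replicate libraries of each group differed by more than sampling noise.

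Coding length, transcript length and GC content are medians over RefSeq-matched transcripts of GENCODE vM21; start regions are RefSeq's on GRCm38.p6. Neither is the build of the counts, and no coordinates were carried over. Alternatives were DESeq2 1.42.0, voom with sample weights and log2(FPKM + 1) or log2(FPKM + 0.1) in limma 3.58.1, relative log expression factors, library totals, TMM without the ribosomal protein genes, no filter, the compared groups alone, 3 removals of length or GC trends (2 of them chosen after seeing the data), a replicate block and leaving out each library. The main fit and the fit with the length trend removed were also run on simulated counts with known changes. In that simulation genes varied independently, so it does not cover libraries in which many genes shift together.

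Genes named are a fixed set of landmark proteins and paralogs (2 of them have no value here), the 5 highest and 5 lowest fitted changes in each comparison, ribosomal components that the symbol rule leaves out (1 of them is not reported here), and the 3 smallest p-values of each related list; some others in counts or examples were chosen after their values were seen. The genes, lists and tests were chosen with earlier results of these data known.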

Additional observations from a re-analysis of the deposited data

Results flagged for a closer look

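In LC livers, the group of 4 libraries, 42 sets of values were looked at for a single library far from the other 3, and 3 were flagged; chance flags about 1 group in 20. Rpl37a was at 317.1 CPM in LC replicate 4, against 262.2 to 269.9 CPM in the other LC libraries. Rps15 was at 527 CPM in LC replicate 4, against 374.2 to 399.1 CPM. Rps2 was at 562.1 CPM in LC replicate 1, against 668.9 to 686.7 CPM in the other LC libraries. Rpl37a and Rps15 in the remaining LC libraries were still above all RF and AL values, and Rps2 in the remaining LC libraries was still below them. Groups of 3 were not looked at in this way.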

How the results depend on the processing

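No called value changed sign under the 23 alternatives. For LC against AL (20 genes higher, 3 lower, median 0.19), the library totals gave 57, 0 and 0.494, log2(FPKM + 1) gave 57, 0 and 0.455, and log2(FPKM + 0.1) gave 57, 0 and 0.456. In these fits 34.4%, 33.6% and 33.6% of all genes were higher, against 16.0% in the main fit, and 5.36%, 5.54% and 5.59% were lower. Removing the length trend gave 37, 0 and 0.342, the trend of other genes 48, 0 and 0.388, and the length and GC trends 43, 1 and 0.366. Of all genes, 12.6%, 12.9% and 12.3% were then higher and 15.2%, 15.1% and 14.7% lower. No filter gave 13 higher genes of 81 (16.0%, against 10.9% of all genes) and the compared groups alone gave 7 (8.97% against 13.3%). For RF against LC (1 higher, 27 lower, median -0.24), the totals gave 0, 50 and -0.45, and the FPKM fits 0, 51 and -0.433 or -0.434. The share of all genes called lower rose as well, from 10.7% to 21.3% by totals and 21.8% or 21.0% in the FPKM fits. The trend of other genes gave 0, 41 and -0.359 (10.8% of all genes higher, 10.3% lower). The length and GC trends gave 0 higher (background 10.6%) and -0.357. The length trend and no filter each gave 0 higher, with backgrounds of 10.8% and 8.07%. DESeq2 and voom each gave 2 higher, with backgrounds of 12.7% and 13.8%. For RF against AL, 0 genes were called under all 23 alternatives, while the median (-0.09) was 0.0177 by totals, 0.0111 in both FPKM fits, 0.0327 without the length trend, 0.0395 without that of other genes and 0.0274 without length and GC trends; its sign depends on the scaling. The shares were 4.79% in RF, 6.91% in LC and 4.71% in AL on FPKM, and 1.94% in RF and 1.92% in AL without Mup genes. Leaving out 1 library at a time gave 1 to 19 higher and 1 to 4 lower genes with a median of 0.117 to 0.235 for LC against AL. Backgrounds there were 7.37% to 16.8% higher and 8.85% to 16.7% lower. For RF against LC it gave 0 to 2 higher and 10 to 30 lower with -0.282 to -0.19. Backgrounds there were 6.11% to 12.3% higher and 4.96% to 11.8% lower. For RF against AL it gave 0 calls with -0.115 to -0.0705. The ribosomal protein shares of counts, with 1 library left out, lay between 1.73% and 1.78% in RF, 2.31% and 2.46% in LC, and 1.67% and 1.83% in AL. The cause of these shifts was not tested.

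Replicate numbers recur across groups. Same-numbered libraries of different groups deviated together with r between -0.0462 and 0.252, and differently numbered ones with r between -0.21 and 0.117. The highest values were of same-numbered LC and RF libraries, 0.252 for replicate 1 and 0.185 for replicate 2. The labels state no pairing, so the numbers were not taken as one, and whether they are one was not tested. With the replicate block, 18 genes were higher and 3 lower in LC than in AL (median 0.204), 3 higher and 24 lower in RF than in LC (median -0.209), and 0 were called in RF against AL (median -0.0381). That fit called 15.3% of all genes higher and 14.9% lower in LC than in AL. In RF against LC it called 12.6% of all genes in each direction. Single-gene values kept their side of the threshold in 2087 cases, lost a call in 133 and gained one in 84, and changed sign with no call in either fit in 178; of the counts, medians and shares, 156 stayed and 67 moved. With 3 or 4 libraries a group, small differences are not detectable.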
